A study of Mus musculus with 2 samples.

Results

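The AP-1 and EGR immediate early factors are the 10 genes Fos, Fosb, Jun, Junb, Jund, Atf3, Egr1, Egr2, Egr3 and Ier2. They were chosen by name, as the probe sets whose platform annotation gives 1 of these symbols and no other, and all 10 were found, with 1 probe set each, among 19938 genes named in that way. The levels compared came from KSL cells, the c-Kit-positive, Sca-1-positive and lineage-negative marrow cells that hold blood stem cells and early progenitors. The cells came from Nrf2-/- mice (knockout), which lack the redox-sensitive transcription factor NRF2, the product of Nfe2l2, and from Nrf2+/+ mice (wild type). Both genotypes were young healthy C57BL/6J mice of 8 to 10 weeks, with no treatment named. Marrow of 5 mice was pooled per genotype before sorting, and the RNA of each pool went on a single array, so no value below has a replicate, no difference was tested and no p-value was computed. The targeted gene, Nfe2l2, read 9.07 in Nrf2-/- cells and 9.16 in Nrf2+/+ cells; the labels do not name the deleted part of the gene, so this probe set is no check of the genotype, and both genotypes are given below as labelled.

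Immediate early genes are switched on within minutes of a growth factor, cytokine or stress signal, without the need for new protein. FOS and JUN proteins pair through leucine zippers to form AP-1, which binds DNA and drives a second wave of genes, and ATF3 is a stress-induced member of the same bZIP class that often represses its targets. EGR proteins are zinc finger factors that bind GC-rich sites, and in blood progenitors EGR1 is known for holding stem cells in quiescence while EGR1 and EGR2 promote macrophage over neutrophil fate. NRF2 is itself a bZIP protein, which pairs with small MAF proteins on a site whose core resembles an AP-1 site. The same immediate early genes respond to the handling of living cells, including digestion, staining and sorting.

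The promoters are where the signals that drive these genes converge, so those of the members that differed the most between the arrays, Egr2 and Atf3, are shown whole, from RefSeq on GRCm38.p6. Each window runs from 250 bases before to 50 bases after an annotated transcript start, 5′ to 3′ on the strand of the gene. Capitals mark the CRE core TGACG, bound by CREB and ATF proteins, or its reverse complement, and the serum response element, bound by SRF. For Egr2, 5 starts are annotated, and the window is the first of 3 that overlap and hold both elements. It lies at chr10:67537619-67537918 on the plus strand, and that of Atf3 at chr1:191183284-191183583 on the minus strand.
Egr2: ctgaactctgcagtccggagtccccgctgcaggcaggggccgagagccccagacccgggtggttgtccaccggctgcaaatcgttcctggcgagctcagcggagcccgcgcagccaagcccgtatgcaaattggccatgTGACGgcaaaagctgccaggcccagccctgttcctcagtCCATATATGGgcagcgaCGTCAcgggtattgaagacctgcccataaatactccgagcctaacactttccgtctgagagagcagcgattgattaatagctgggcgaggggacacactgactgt
Atf3: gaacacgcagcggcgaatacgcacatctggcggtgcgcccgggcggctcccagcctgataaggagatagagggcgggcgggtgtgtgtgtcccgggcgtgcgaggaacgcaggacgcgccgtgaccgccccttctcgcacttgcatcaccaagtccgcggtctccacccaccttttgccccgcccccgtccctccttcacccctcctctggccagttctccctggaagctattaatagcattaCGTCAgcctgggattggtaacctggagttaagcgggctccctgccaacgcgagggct

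The Egr2 window held 3 marked elements, with the serum response element 72 bases before the start and CRE cores beginning 111 and 55 bases before it. The Atf3 window held 1, a CRE core on the reverse strand that begins 7 bases before the start. Windows were given for 7 of the 10 genes and for none of Egr1, Egr3 and Ier2. The CRE core was found in 5 of the 7, in Fos, Fosb and Junb as well as Egr2 and Atf3. By gene, the CRE core was in at least 1 window of 23.0% of all 27025 genes of the table, and of 36.6% of the 8063 genes with a window that passed the level filter described below. Unless given by gene, the shares that follow are of all 32851 windows, of which 20.8% held the CRE core. Among the 7 genes, the serum response element was found in the windows of Egr2 alone. It was in 1.63% of all windows, and by gene in 1.54% of the 8063. Bases more than 250 before a start were not searched, so an element farther out would not be seen.

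Short stretches are shown for the other AP-1 genes that held an element, with 30 bases on each side of the CRE core, the one nearer the start in Fos, or of the variant site in Jun. Capitals again mark CRE cores, and in Fosb also the EGR site GCGNGGGCG. In Jun they mark TGACATCA, the variant AP-1 and ATF site of the Jun promoter. The stretches lie at chr12:85473794-85473858 on the plus strand for Fos, and on the minus strand at chr7:19310071-19310135 for Fosb, chr8:84978820-84978884 for Junb and chr4:95052230-95052297 for Jun.
Fos: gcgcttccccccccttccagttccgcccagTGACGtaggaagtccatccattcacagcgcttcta
Fosb: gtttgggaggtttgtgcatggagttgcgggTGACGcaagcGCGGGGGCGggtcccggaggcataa
Junb: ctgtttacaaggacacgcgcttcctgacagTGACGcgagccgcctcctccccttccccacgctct
Jun: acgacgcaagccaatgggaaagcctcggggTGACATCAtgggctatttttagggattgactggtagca

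In Fos the CRE core begins 66 bases before the start, with another at 129 bases, and in Fosb and Junb the core begins 60 and 106 bases before the start. The EGR site of Fosb lies 50 bases before the start, and 5.55% of all windows held such a site. The Jun site begins 45 bases before the start, and its letters were found in 3.62% of all windows. No member window held the AP-1 site TGANTCA, found in 7.81% of all windows, and the window of Jund held none of the letters searched. The core of the NRF2 binding site, TGACNNNGC, was found in Egr2 alone, 59 bases before the start of the window shown, where it overlaps the reverse CRE core; 12.4% of all windows held it. All motifs were searched on both strands, and a match is a description of these letters and not of binding.

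**Figure D1:**
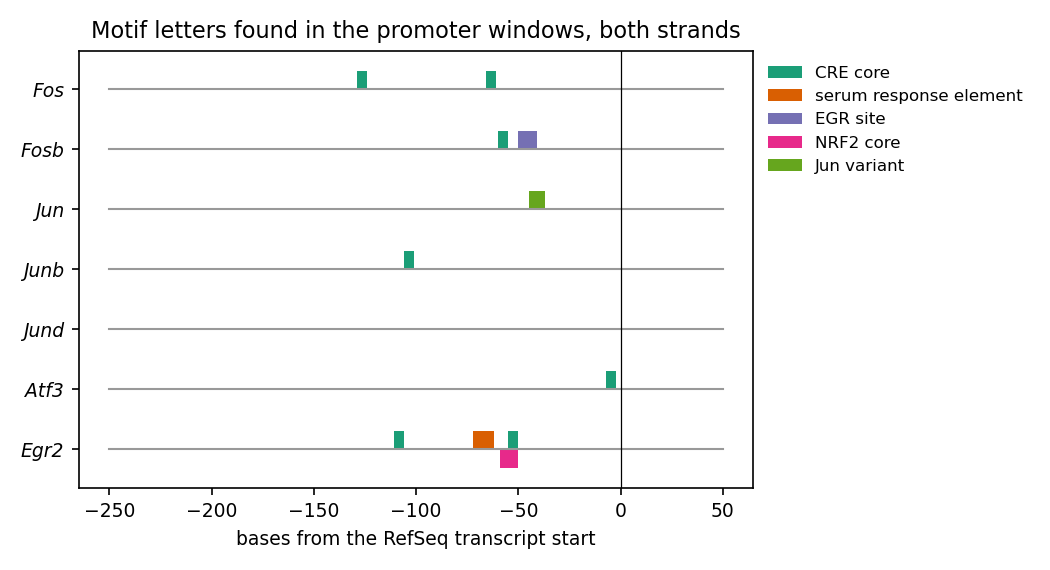
Positions of motif letters in the promoter windows of 7 genes. The x axis gives bases from the annotated transcript start (vertical line), each grey line is 1 window, and coloured boxes are matches on either strand; CRE cores lie before the start in Fos, Fosb, Junb, Atf3 and Egr2.

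As a group, these genes were lower in Nrf2-/- cells. Of the 10, 9 were below their wild-type level, where 52.9% of the 9970 genes past a level filter were, and all 10 members passed that filter, a mean log2 intensity of at least 6.57 over both arrays. Their median difference, log2 knockout minus log2 wild type, was −0.28, beside −0.02 over all genes past the filter. The differences were uneven, between −0.95 for Egr2 and 0.07 for Jund. Only Egr2 and Atf3 were at least 1.5-fold lower, 2 of 10 beside 4.3% of all genes, and none was at least 1.5-fold higher, as 2.34% of all genes were. None reached 2-fold. Without Egr2 and Atf3, the other 8 had a median of −0.20 with 7 below 0.

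A measure of error comes from 515 genes past the filter with exactly 2 probe sets, whose disagreement gave an SD of 0.32 for 1 difference (a robust estimate gave 0.17). It covers the behaviour of probes and leaves out the spread between mice, sorts and amplifications. The differences of Egr2 and Atf3 were 3.02 and 2.96 times that SD, and both lay outside the middle 95% of all genes, which ran from −0.73 to 0.57. The other 8 members lay inside it. Over all 9970 genes past the filter the differences had an SD of 0.33, close to the 0.32 from probe sets. Each member has 1 probe set, so its own probe-set error was not measured.

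**Figure D2:**
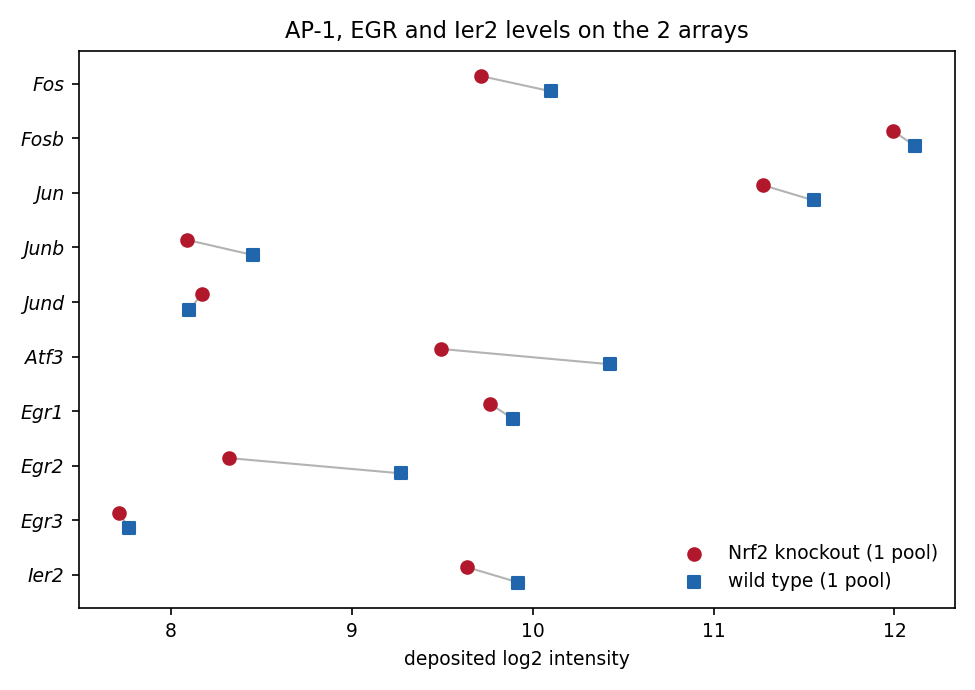
Deposited log2 intensity of each of the 10 genes in Nrf2-/- cells (red circles, drawn above) and in Nrf2+/+ cells (blue squares, below), 1 array each. The red circle lies left of the blue square for every gene but Jund, and the gap is widest for Egr2 and Atf3; levels of different genes are not comparable on an array.

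Among the FOS genes, which encode the AP-1 subunits that need a JUN partner to bind DNA, both were lower by different amounts. Fos had a log2 intensity of 9.71 in Nrf2-/- cells, against 10.10 in Nrf2+/+ cells, a difference of −0.39 that leaves 76.4% of the Nrf2+/+ level. Fosb stood at 11.99 in Nrf2-/- cells and 12.11 in Nrf2+/+ cells, a difference of −0.12. The gap for Fos was 1.23 times the probe-set SD and that for Fosb 0.39 times, so the Fosb value is close to level.

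The JUN genes encode subunits that can pair with themselves or with FOS. Jun, the most potent activator among them, stood at 11.27 in Nrf2-/- cells and 11.56 in Nrf2+/+ cells, a difference of −0.28. Junb, which is known to restrain the expansion of myeloid progenitors, stood at 8.09 in Nrf2-/- cells and 8.45 in Nrf2+/+ cells, a difference of −0.37 that leaves 77.5% of the Nrf2+/+ level. Jund was the exception, at 8.17 in Nrf2-/- cells and 8.10 in Nrf2+/+ cells, a difference of 0.07. As background, Jund is made at a steady level in resting cells rather than in a burst. Jund lay 0.35 above Jun and 0.43 above Junb in its difference. For the gap between a pair of differences the probe-set error gives an SD of 0.45, which both gaps are under. The robust estimate gives 0.24, which both exceed. Neither covers the spread between animals or sorts, so whether Jund differs from Jun or Junb was not tested and cannot be told here.

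Atf3 had a log2 intensity of 9.49 in Nrf2-/- cells, against 10.43 in Nrf2+/+ cells. The difference of −0.93 leaves 52.3% of the Nrf2+/+ level, 1.91-fold lower. Of the 9970 genes, 107 had a lower difference, which is 1.07% of them. The promoter printed above carries a single CRE core, close to the start.

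The EGR genes were the most uneven family. Egr2 stood at 8.32 in Nrf2-/- cells and 9.27 in Nrf2+/+ cells, a difference of −0.95 that leaves 51.6% of the Nrf2+/+ level, and 95 genes had a lower difference. Egr1 stood at 9.76 in Nrf2-/- cells and 9.89 in Nrf2+/+ cells, a difference of −0.13, and was 91.5% of its wild-type level. Egr3 was nearly equal, at 7.71 in Nrf2-/- cells and 7.77 in Nrf2+/+ cells, a difference of −0.06. In its difference Egr2 lay 0.83 below Egr1 and 0.89 below Egr3, both more than the SD of 0.45, or 0.24 by the robust estimate, for such a gap, neither of which covers the spread between animals.

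Ier2, a short nuclear protein gene induced together with Fos and Jun, stood at 9.64 in Nrf2-/- cells and 9.92 in Nrf2+/+ cells. Its difference of −0.28, which leaves 82.2% of the Nrf2+/+ level, was close to that of Jun, and 17.4% of all genes had a lower one.

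**Figure D3:**
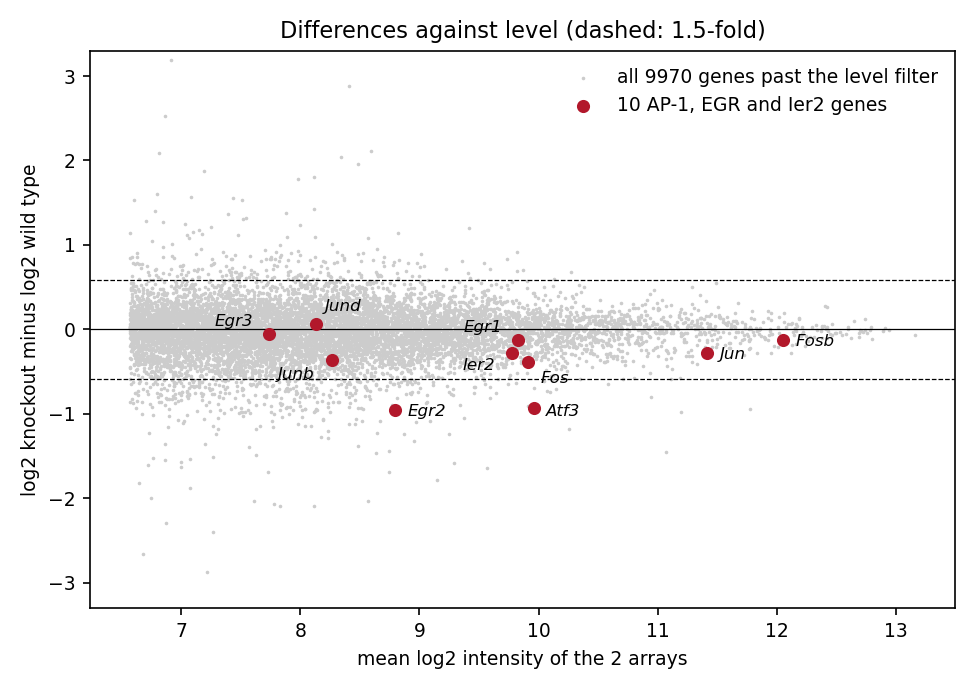
Log2 knockout minus log2 wild type (y axis) against mean log2 intensity of both arrays (x axis) for the 9970 genes past the level filter (grey) and the 10 AP-1, EGR and Ier2 genes (red). Egr2 at −0.95 and Atf3 at −0.93 lie below the lower dashed line, which marks 1.5-fold.

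Other AP-1 and related bZIP genes, which are mostly not induced as immediate early genes, were near level. Of 14 listed, 11 passed the filter, with 6 lower, 5 higher and a median of −0.06. Batf2 had the widest difference, at 7.69 in Nrf2-/- cells and 7.12 in Nrf2+/+ cells, or 0.58 higher. Atf2, a partner of JUN on CRE-like sites, differed by −0.24, and Mafk, a small MAF partner of NRF2, by −0.18. The FOS relatives Fosl1 and Fosl2, named here after their values were seen, differed by 0.06 and 0.10.

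The co-repressors that bind EGR proteins were split. Nab2, itself induced by EGR factors as a feedback brake, stood at 7.54 in Nrf2-/- cells and 8.49 in Nrf2+/+ cells, a difference of −0.95, nearly the same as that of Egr2. Nab1, its constitutive relative, stood at 8.35 in Nrf2-/- cells and 8.39 in Nrf2+/+ cells, a difference of −0.04. Klf6, a zinc finger gene listed with them, differed by −0.38, while Egr4 and Wt1 were below the level filter. All 3 genes past the filter were lower, and 1 of the 3 was at least 1.5-fold lower. The median of the 3 was −0.38, and −0.21 with the level filter at the 75th percentile.

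Immediate early genes outside the AP-1 and EGR families were lower to a similar degree. Of 46 symbols listed, 43 were measured and 37 passed the filter, with 31 lower, 6 higher and a median of −0.25. That median was −0.18 with quantile normalization of the arrays, −0.19 with no level filter and −0.21 with the filter at the 75th percentile. Of the 37, 5 were lower by 1.5-fold or more, and 0 were higher by that much. Gadd45b, a stress sensor upstream of JNK and p38, was the lowest, at 7.01 in Nrf2-/- cells and 8.03 in Nrf2+/+ cells, a difference of −1.02. Klf10, a TGF-beta-induced zinc finger gene, differed by −0.77, the orphan nuclear receptor Nr4a3 by −0.74, the bZIP repressor Nfil3 by −0.72 and the ADP-ribosyltransferase Tiparp by −0.59.

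Related genes of that list differed among themselves, and the following were named after their values were seen. Of the NR4A receptors, Nr4a1 differed by −0.35 and Nr4a2 by 0.10. The relatives of Ier2 in name, Ier3 and Ier5, differed by −0.41 and −0.45. Myc and the mRNA-decay factor Zfp36 were near level, at 0.03 and −0.03.

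Of 30 listed kinases that carry signals to these factors, 21 were measured and 19 passed the filter, with 15 lower, 4 higher, none at least 1.5-fold apart and a median of −0.10. The p38 activator Map2k6 differed by −0.49, the ERK pathway kinase Map3k8 by −0.49 and the JNK gene Mapk9 by 0.48. Feedback inhibitors of the MAP kinases, many of them induced by the same signals, had a median of −0.21 over 13 genes, with 9 lower, 3 higher and Dusp5 equal; with the level filter at the 75th percentile the median was −0.06. Spry2 was 1.56-fold lower, at 7.26 in Nrf2-/- cells and 7.90 in Nrf2+/+ cells. The phosphatase genes Dusp10 and Dusp7 differed by −0.53 and −0.48.

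The factors that bind the CRE and the serum response element, or act as their co-activators, were mixed, with 6 lower and 5 higher of 11 and a median of −0.10. Atf1, a CREB relative, stood at 9.18 in Nrf2-/- cells and 9.99 in Nrf2+/+ cells, a difference of −0.81. The CREB co-activator Crtc3 differed by −0.78, and its relative Crtc1 by 0.33. Srf and Creb1, named after their values were seen, differed by −0.16 and 0.27.

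**Figure D4:**
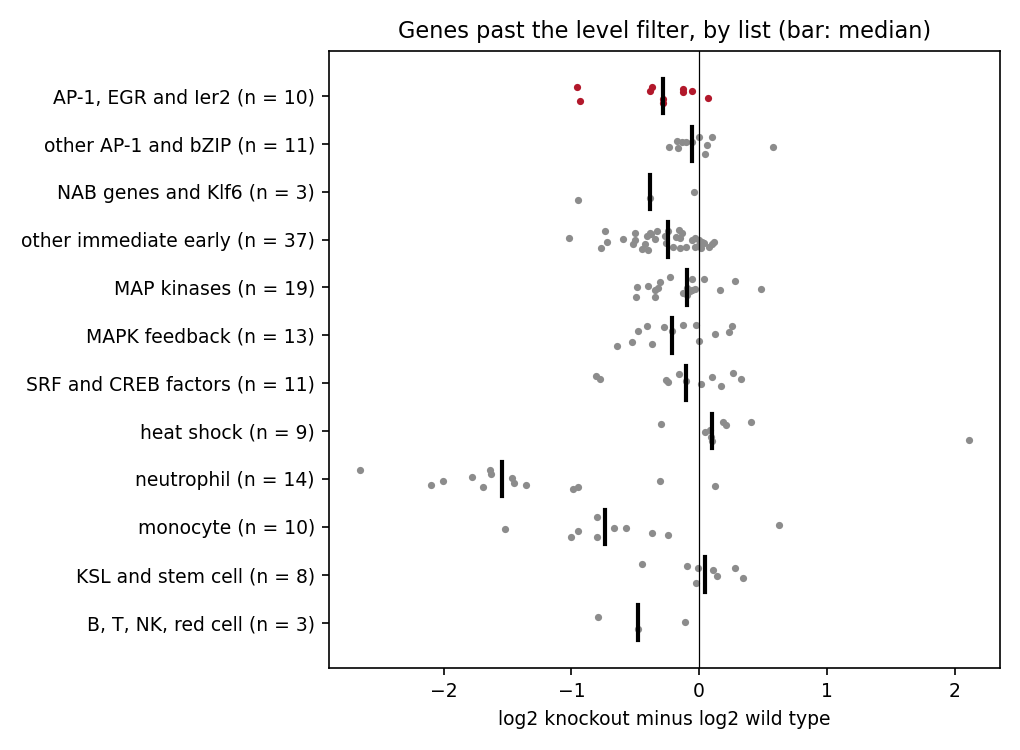
Log2 knockout minus log2 wild type (x axis) for genes past the level filter, 1 row per list; each point is a gene and each black bar the median of its list, with points shifted vertically for legibility. The AP-1, EGR and Ier2 genes (red) have a median of −0.28, close to the −0.25 of other immediate early genes, while the neutrophil list has −1.54 and the heat shock list 0.10.

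Markers of other cell types differed between the pools as well. Neutrophil markers were lower in Nrf2-/- cells for 13 of 14 genes past the filter, with a median of −1.54, and the intensities of all 16 measured, on the linear scale, summed to 7880 in Nrf2-/- cells and 17857 in Nrf2+/+ cells. S100a9, a subunit of calprotectin, had strong signal in either genotype, with 11.30 in Nrf2-/- cells and 12.25 in Nrf2+/+ cells. Monocyte and macrophage markers were lower for 9 of 10 genes, with a median of −0.73. Their sums over 13 genes were 2669 in Nrf2-/- cells and 3773 in Nrf2+/+ cells. The exception was Cd68, at 9.31 in Nrf2-/- cells and 8.68 in Nrf2+/+ cells, a difference of 0.63 and more than 1.5-fold higher. No marker of either list was listed at 0, nor was any gene of the other lists, so this does not show detection. The filter takes the mean of both arrays, so Retnlg, Mmp8, Cxcr2, Il1r2, Fn1 and Ccl6 passed it with Nrf2-/- values below 6.57. Of the neutrophil list it left out Ly6g, which differed by 0.51, and Mmp9, by −0.82, both named after their values were seen. With no level filter the medians were −1.46 for neutrophil markers and −0.67 for monocyte and macrophage markers. Mature myeloid cells express immediate early genes too, and the part of these cells in the lower Egr2, Atf3 and other values was not tested; in such pools, fewer cells of a type and less RNA per cell cannot be told apart.

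Markers of the sorted cells themselves differed in both directions, and Ly6a, which encodes Sca-1, was not analysed here. The stem cell factor receptor gene Kit stood at 11.21 in Nrf2-/- cells and 10.93 in Nrf2+/+ cells, a difference of 0.28. The stem cell transcription factor genes Mecom and Meis1 differed by −0.45 and 0.35. Of 8 stem and progenitor genes past the filter, 4 were lower and 4 higher, with a median of 0.05, and the 10 measured summed to 12211 in Nrf2-/- cells and 11063 in Nrf2+/+ cells. Of the B, T, NK and red cell markers, 3 of 10 measured passed the filter, all lower. They were Cd79b at −0.79, Nkg7 at −0.48, which is the median, and Cd3e at −0.11. The 10 summed to 1206 in Nrf2-/- cells and 1619 in Nrf2+/+ cells. Such sums weigh the brightest genes most, here Nkg7, at 9.28 in Nrf2-/- cells and 9.76 in Nrf2+/+ cells.

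Heat shock genes, chaperone genes that damaged protein induces, were mostly higher in Nrf2-/- cells, most of them slightly. Of 9 past the filter, 8 were higher and 1 lower in Nrf2-/- cells, and 1 was at least 1.5-fold higher. The median of 0.10 is less than the probe-set SD of 0.32 and the robust 0.17. Hspa1a, the inducible HSP70 gene, stood at 9.65 in Nrf2-/- cells and 7.54 in Nrf2+/+ cells, or 4.33-fold higher. Hsph1, its nucleotide exchange factor, differed by 0.41 and the co-chaperone gene Bag3 by −0.30. Their part in the differences of the AP-1 and EGR genes was not tested.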

How the data were processed

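Total RNA of sorted KSL cells was amplified and labelled with NuGEN Ovation kits, per the labels' protocols, and measured on Affymetrix Mouse Gene ST 1.0 chips, 1 per genotype. The authors deposited 1 log2 intensity for each probe set, the log base being taken here from the range of values. The submitters' processing notes name Partek; how background was corrected and arrays normalized is not given in the sources used. Once sorted, the 2 sets of values were within 0.0866 of each other, so a common shift of all genes may have been removed before deposit.

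Of 28853 probe sets, 21789 had 1 gene symbol, 1621 several and 5443 none, and the first were used. All 10 members matched a RefSeq gene by Entrez ID under the same symbol. Probe sets of a gene were averaged. The level filter kept genes whose mean over both arrays reached the median over genes. Each difference is log2 Nrf2-/- minus log2 Nrf2+/+, without further scaling, and was counted past 1.5-fold; lists are described by counts and medians. An array has no read depth, and the number of arrays limits precision. Sequences and positions come from RefSeq, GRCm38.p6.

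Members and lists were chosen with earlier results of these data known. Genes named are the members, Nfe2l2 and, from each list, every gene past the filter that was at least 1.5-fold apart, filled up to 3 by absolute difference; others are said to be named after their values were seen. Genes of the cell marker lists are given mainly as counts, so many of them past 1.5-fold are not named. Alternatives were median centring, quantile normalization, loess (fraction 0.3), the probe set of highest mean, other filters, 2-fold, means and leaving out 1 member. The procedure was run on simulated data with planted differences larger than that of any member. This checks the arithmetic and not the differences reported here. Python 3.11.15, numpy 2.4.6, pandas 2.3.3, statsmodels 0.14.6 and matplotlib 3.10.9 were used.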

Additional observations from a re-analysis of the deposited data

How the results depend on the processing

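The median difference of the 10 genes lay between −0.35 and −0.27 under the 5 alternatives that could change it, and 9 of 10 were lower under each of the 3 other scalings. All members have 1 probe set and passed the filter, so the choice of probe set and the restriction to members past the filter leave their values as they are by construction. Egr2 lay between −0.96 and −0.92 and Atf3 between −0.94 and −0.91 under the 3 scalings, in which no member changed sign and all 30 member values moved by less than the robust probe-set error of 0.17. With 2-fold in place of 1.5-fold, 0 of the 10 were lower by that much, while of all genes 76 were lower and 41 higher; the counts at 1.5-fold were 429 lower and 233 higher. With the filter at the 75th percentile these counts were 165 lower and 79 higher, since fewer genes were counted. Small list medians moved by over 1.5 times under some settings. At the 75th percentile filter the median was −0.06 for MAP kinase feedback inhibitors, −0.21 for NAB genes and Klf6, −0.09 for other AP-1 genes, −0.04 for the SRF and CREB factors and 0.12 for stem cell genes. The other AP-1 genes had −0.02 with quantile normalization and −0.03 with loess, and the SRF and CREB factors −0.06 with no level filter. The median of B, T, NK and red cell markers was −0.14 with no level filter, which adds its dim members. No paired analysis was possible because each genotype had 1 array. With 1 pool per genotype, the spread between animals is unknown for every value.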

Other observations

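Genes of the immediate early list below the level filter, where sizes are less sure, included Id2, an inhibitor of bHLH factors, at 5.67 in Nrf2-/- cells and 7.06 in Nrf2+/+ cells, a difference of −1.39. The EGFR feedback inhibitor gene Errfi1 stood at 6.67 in Nrf2-/- cells and 6.14 in Nrf2+/+ cells, a difference of 0.53. Egr4, the remaining EGR gene, stood at 5.84 in Nrf2-/- cells and 6.13 in Nrf2+/+ cells.

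Across all genes past the filter with a promoter window, those with a serum response element had a median difference of −0.08 over 124 genes, with 62.1% below 0, and those without had −0.02 over 7939 genes, with 53.2% below 0. Genes with a CRE core had a median of −0.02 over 2955 genes, and those without had −0.02 over 5108 genes. Genes with the NRF2 core had −0.02 over 1355 genes, as did 6708 genes without it. Genes with the AP-1 site had −0.05 over 453 genes, with 57.0% below 0, and those without had −0.02 over 7610 genes, with 53.1% below 0. Genes with the EGR site had −0.02 over 1004 genes, as did 7059 genes without it. Genes with the variant site of Jun had a median of 0.004 over 161 genes, with 48.4% below 0, and those without had −0.02 over 7902 genes. These are descriptions with no test, and genes are not replicates.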
